A study of Mus musculus with 12 samples.

Results

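The widest stretches of the genome listed for Runx1b in mouse haemogenic endothelium are described here. They were chosen by their width alone: autosomal DamID-seq regions with an end minus start of 4500 bp or more. There were 614 of them among 7695 autosomal regions (7.98%, exact Clopper-Pearson interval 7.38 to 8.61), and the whole table held 8133 regions assigned to 5867 genes. Runx1b was expressed as a fusion with the bacterial methylase Dam in the line iRunx1b::Damko, and Dam alone in the control line iDamko. Both lines were runx1-/- mouse embryonic stem cells of strain 129, so the control cells lacked Runx1 too. FLK1+ cells from embryoid bodies (d3.25) were cultured for 2 days before haemogenic endothelium was isolated. Each line gave 6 libraries, 3 of them biological replicates and the other 3 technical ones by their labels. Of the 6, 2 were sorted by FACS for cKIT+ TIE2+ CD41- and 4 by MACS for FLK1+. The deposited table has 1 read count per gene and no value per library, so there is no replicate error, and no difference between the lines could be tested. The sources used here do not give how regions were called or which libraries the counts sum.

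Haemogenic endothelium is the endothelium from which the first blood cells bud, and Runx1 is the transcription factor required for that step. Runx1b is the isoform transcribed from the proximal promoter of the gene. In DamID, a Dam fusion methylates adenine in the sequence GATC near the sites that its partner occupies, and the methylated fragments are amplified and sequenced. The method records where the fusion has been over a period, at the resolution of GATC fragments. All region widths here are multiples of 50 bp, so the borders follow a 50 bp grid and not the ends of GATC fragments. How regions were called is not given, so what a wide region is made of is not known here. Because width and read count come from the same reads, every value below is a description, and none carries a test.

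The widest region of all held a microRNA, and a second named microRNA lay at another wide region. Mir126, which lies inside the endothelial gene Egfl7 and is known for its part in vessel integrity, shared the 18.35 kb region of its host. Mir130a shared a 6.0 kb region with Ypel4 at chr2:84576574-84582574 (mm9), which held 4132 reads, or 689 reads per kb. Their mature sequences from RefSeq (GRCm38.p6) are shown because the seed is the part that selects target transcripts. Capitals mark the seed, bases 2 to 8 from the 5′ end.
mmu-miR-126a-3p, chr2:26591402-26591423, plus strand: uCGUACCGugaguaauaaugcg
mmu-miR-130a-3p, chr2:84741116-84741137, minus strand: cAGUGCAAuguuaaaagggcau
mmu-miR-130a-5p, chr2:84741155-84741176, minus strand: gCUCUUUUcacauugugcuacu
The 3 seeds differ from one another. In all, 8 of the 75 genes annotated as microRNAs with an autosomal region (10.7%) had a wide one, beside 641 of all 5529 genes (11.6%), and the other 6 were not matched to a mature name.

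Promoter windows are shown because Dam acts only at GATC. The genes were taken from those with the widest regions in the transcription factor, adhesion and signalling lists. Only windows that hold GATC are printed, and 1 of those, Tspan14 start 2, is left out. RefSeq windows (GRCm38.p6) run from 250 bases before to 50 after a transcription start, and capitals mark GATC.
Egfl7, start 2, chr2:26583615-26583914, plus strand: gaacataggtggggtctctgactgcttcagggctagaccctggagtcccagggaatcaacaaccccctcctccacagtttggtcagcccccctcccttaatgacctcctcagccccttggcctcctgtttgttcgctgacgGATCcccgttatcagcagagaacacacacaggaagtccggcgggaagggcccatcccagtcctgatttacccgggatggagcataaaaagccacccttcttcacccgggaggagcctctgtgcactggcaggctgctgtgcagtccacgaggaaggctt
Egfl7, start 3, chr2:26586386-26586685, plus strand: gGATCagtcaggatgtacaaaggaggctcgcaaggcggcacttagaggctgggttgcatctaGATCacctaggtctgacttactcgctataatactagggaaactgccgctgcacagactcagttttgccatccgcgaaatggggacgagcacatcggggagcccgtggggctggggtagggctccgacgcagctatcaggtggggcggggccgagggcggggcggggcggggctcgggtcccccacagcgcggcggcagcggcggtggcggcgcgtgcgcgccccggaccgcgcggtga
Tspan14, start 1, chr14:40966847-40967146, minus strand: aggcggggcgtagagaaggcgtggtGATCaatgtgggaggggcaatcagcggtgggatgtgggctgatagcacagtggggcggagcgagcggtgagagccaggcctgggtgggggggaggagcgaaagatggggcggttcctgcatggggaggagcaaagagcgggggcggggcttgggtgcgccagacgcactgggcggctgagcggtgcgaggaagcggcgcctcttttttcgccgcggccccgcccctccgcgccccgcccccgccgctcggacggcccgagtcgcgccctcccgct
Of the 3 Egfl7 starts, start 3 has 2 GATC, start 2 has 1 and start 1 has 0. Each of the 2 Tspan14 starts has 1. The single windows of Zhx3, Col4a1 and Plcg1 have 0. GATC, which reads the same on both strands, occurs in 48.0% of all 32851 RefSeq promoter windows. The Runx motif TGTGGT, searched on both strands, occurs in 16.8% of them and in none of the 8 windows of Egfl7, Tspan14, Zhx3, Col4a1 and Plcg1. The windows are of another build than the regions, and whether a region covers a window was not analysed. Windows were found for 400 of 532 protein-coding genes with a wide region (75.2%), under the 80% needed, so a comparison of motif shares between gene sets is void.

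The wide regions form the tail of a single falling distribution. Their median width was 5525 bp (quartiles 4900 and 6650, highest 18350), whereas the 7081 narrower regions ran from 1200 to 4450 bp with a median of 2050. At 5 kb or more stood 427 regions, at 6 kb or more 236, at 8 kb or more 77 and at 10 kb or more 24. The wide regions made up 3.74 Mb of the 19.6 Mb covered on autosomes (19.1%). At the threshold, 16 regions were exactly 4500 bp wide, among them those of Obfc2a, Rgl1 and Ccdc6, and 19 stood 1 grid step below at 4450 bp, among them those of Gm8618, Rnf43 and Elmo1. The X chromosome held 11 regions of this width among 420, and the Y chromosome 0 among 18, and these are not counted among the 614.

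**Figure D1:**
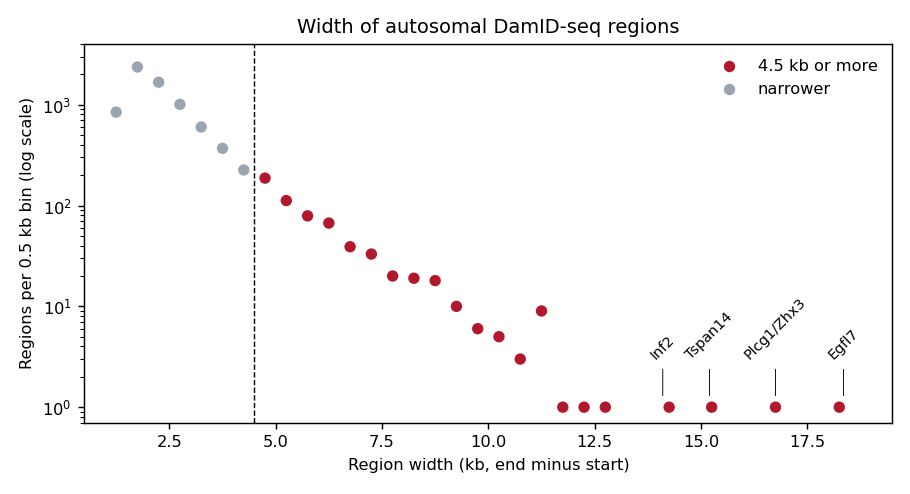
Number of autosomal regions (log scale) in bins of 0.5 kb against region width (kb), with wide regions in red, narrower ones in grey and the dashed line at 4.5 kb. The numbers fall without a gap at the threshold, and 4 regions, those of Inf2, Tspan14, Plcg1/Zhx3 and Egfl7, stand at the far right.

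The 10 widest regions were assigned to genes of varied function, 3 of them in the endothelial list. The first, chr2:26434874-26453224 (mm9, as are all region coordinates), was 18.35 kb wide and was assigned to Egfl7, Mir126, RP23-125H15.6 and Agpat2, an enzyme of lipid synthesis. It held 15069 reads, or 821 reads per kb (exact Poisson interval 808 to 834, counting error only). The second, chr2:160557774-160574524, was 16.75 kb wide and was shared by Plcg1, a phospholipase that acts downstream of receptor tyrosine kinases, and Zhx3, a zinc finger and homeobox factor. It held 631 reads per kb (619 to 643), and the nearest other region was 403.55 kb away. A region of 15.2 kb at Tspan14, a tetraspanin that partners the protease ADAM10, came next. Inf2, a formin that shapes actin filaments, followed with 14.1 kb.

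The next of these were S1pr1, Fli1, Serpinh1, Slc2a3, Tbx20 and Sgce. S1pr1, the endothelial receptor for sphingosine 1-phosphate, had 12.85 kb at chr3:115389902-115402752 with 568 reads per kb (555 to 581). Fli1, an ETS factor of endothelium and blood, had 12 kb at chr9:32326351-32338351. Serpinh1, a chaperone of collagen, had 11.8 kb with 615 reads per kb. Tbx20, a T-box factor of the heart, and Slc2a3, a glucose transporter, both had 11.35 kb, and Tbx20 stood at 898 reads per kb. Sgce, a sarcoglycan, had 11.3 kb with 802 reads per kb. Those of these 10 regions that had counts of their own lay between 568 and 898 reads per kb.

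Genes that mark endothelium were found often at wide regions. Of 39 endothelial genes with any autosomal region, 20 had a wide one (51.3%, interval 34.8 to 67.6), beside 532 of all 4529 protein-coding genes (11.7%), 4.37 times that share. At a threshold of 6 kb the ratio was 7.53. The list was chosen with earlier results of these data known, and 35 of its 39 genes also stand in the lists of transcription factors, adhesion or signalling. Endothelial genes had 1.97 regions per gene against 1.59 for all protein-coding genes. Counted by region, 23 of their 77 regions were wide (29.9%, 20.0 to 41.4), beside 8.14% of the regions of all protein-coding genes. Among genes with a single region, 5 of 18 had a wide one (27.8%), beside 203 of 3141 protein-coding genes (6.46%). The assay reads DNA, so these counts do not show which cells were present.

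Among the 20 endothelial genes with a wide region were receptors and junction proteins. In the paragraphs on gene lists, reads per kb of a gene with several regions cover all of them, not the wide one alone. Aplnr, the receptor for apelin, had 11.1 kb at chr2:84972374-84983474 and 763 reads per kb over its regions. Kdr, the VEGF receptor that FLK1 names, had 7.25 kb in 1 of its 3 regions and 895 reads per kb, and Tek, the angiopoietin receptor TIE2, had 5.85 kb and 871. Both proteins served to sort the cells. Pecam1, an adhesion molecule of endothelial contacts, had a single region of 7.85 kb at chr11:106571035-106578885 with 556 reads per kb. Cdh5, the cadherin of endothelial junctions, had 5.2 kb at chr8:106618398-106623598 and 1601 reads per kb over its regions, the highest of the 20 genes. Among other surface genes of the list, Ptprb, a phosphatase that acts on TIE2, had 7.9 kb, Cd34 7.05 kb, Esam 7.0 kb and the tight junction gene Cldn5 4.6 kb with 502 reads per kb. Notch1 had 9.25 kb at chr2:26347824-26357074, and its last region ended 42.3 kb from the first of Egfl7.

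The other 19 endothelial genes had only narrower regions. Nos3, which makes nitric oxide, reached 3.85 kb and Eng, a co-receptor for TGF-beta, 3.75 kb. Flt1, another VEGF receptor, reached 2.3 kb and Sox18, a partner of Sox17 in vessels, 1.55 kb. The list thus holds members well below the threshold as well as 4 at regions of 10 kb or more, Egfl7, S1pr1, Fli1 and Aplnr.

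**Figure D2:**
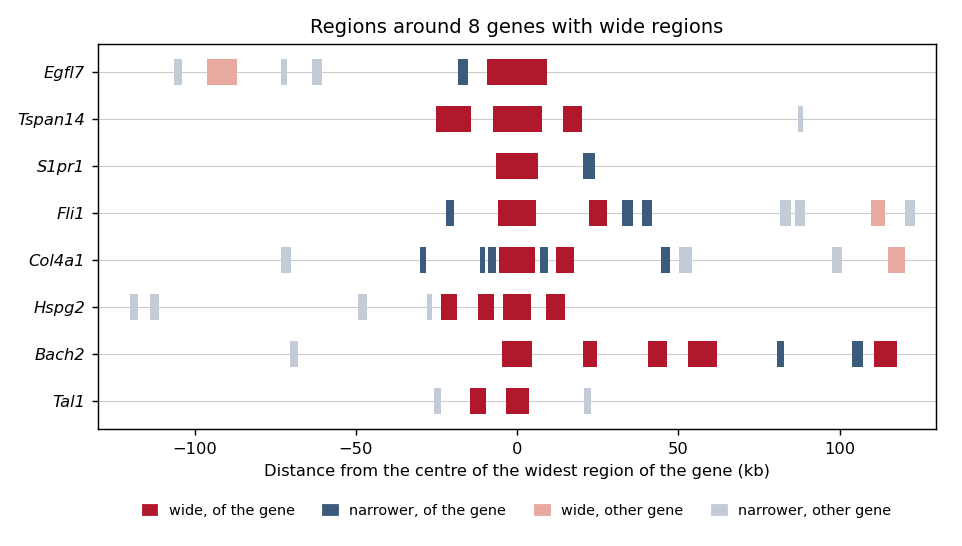
Regions within 130 kb of the widest region of 8 genes, against the distance in kb from its centre; red marks wide and dark blue narrower regions assigned to the gene, and pale colours mark regions of other genes. Hspg2, Tspan14 and Tal1 show wide regions only, with 4, 3 and 2, whereas Col4a1 and Fli1 show wide and narrower regions side by side.

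Regulators of blood development formed the other list with a high share. Of 26 with an autosomal region, 11 had a wide one (42.3%, 23.4 to 63.1), 3.60 times the share of all protein-coding genes, and 15 of their 80 regions were wide. These genes had 3.08 regions each on average, and among the 7 with a single region 1 had a wide one, a ratio of 2.21. At 6 kb the ratio was 5.65. Of the 11, 7 had a wide region assigned to no other gene, and with such regions only the ratio was 2.88. Fli1, Gata2, Tal1 and Erg stand in both this list and the endothelial one (15.4% and 10.3% of the lists), and all 4 had a wide region. Tal1, a factor required for blood development, had wide regions of 7.15 and 5.0 kb, its only regions, with 1513 reads per kb. Gata2, needed for blood stem cells to form, had 7.85 kb and 682 reads per kb over its regions. Lyl1, a close relative of Tal1, had 5.55 kb, shared with Trmt1 and Nfix, and Zfpm1, the GATA partner FOG1, had 6.55 kb, shared with AC114005.5. Etv6, an ETS repressor, had 3 wide regions of 7.65, 6.75 and 4.7 kb among 8. Cbfa2t3, a corepressor that binds Tal1 complexes, had 4.6 kb, also shared with AC114005.5, and Mecom had 4.75 kb. Runx1 itself had 7 regions, and none was wide: the widest was 3.2 kb, at 696 reads per kb for the gene. Meis1 reached 4.2 kb, Gfi1b 2.05 kb and Sfpi1, the gene of PU.1, 1.55 kb.

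Across all transcription factors listed, 43 of 238 had a wide region (18.1%, 13.4 to 23.6), beside 11.7% of all protein-coding genes. By region, 54 of 459 were wide (11.8%), beside 8.14%. Among factors with a single region, 11 of 142 had a wide one (7.75%), close to the 6.46% of all protein-coding genes. The ETS and Runx factors with their partners had 8 of 21 (38.1%) and 13 of 69 regions, although none of the 9 with a single region had a wide one. No Runx gene was among the 8, but Tead1, which is neither an ETS nor a Runx factor, was. Tead1 gave 14 of the 69 regions. In this list Fli1 had wide regions of 12 and 5.5 kb, Ets1, its neighbour 39.5 kb away, had 7.5 and 4.5 kb, Elk3 had 9.3 kb and Tead1, the DNA-binding partner of the Hippo coactivators, 8.6 and 5.3 kb among 14 regions. The basic helix-loop-helix factors had 8 of 31 (25.8%), led by Id1, an inhibitor of that family, with 8.75 kb. Id1 stood at 1134 reads per kb over its regions. Hand1 had 6.45 kb and Myc 6.15 kb. GATA, T-box and zinc finger factors had 9 of 39 (23.1%), with Gata3 at 8.9 kb and Gata6 at 6.35 kb. Homeobox factors had 5 of 36 (13.9%), Sox, Fox and HMG factors 3 of 22 (13.6%), basic leucine zipper factors 2 of 21 (9.52%) and Krueppel-like and Sp factors 1 of 12 (8.33%), near the 11.7% of all protein-coding genes. Nuclear receptors had none among 17 genes and 23 regions. Other factors with wide regions were Sox17, an endothelial factor, with 6.15 kb at chr1:4482913-4489063 and 1312 reads per kb, and Klf6 with 10.95 kb. Arid3b had 9.4 kb and Arid1a, a subunit of the BAF chromatin remodeller, 6.55 kb and 1552 reads per kb over its regions.

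Adhesion genes had the highest share of the 3 broad classes, with 50 of 221 (22.6%, 17.3 to 28.7) beside 11.7% of all protein-coding genes. By region, 57 of 399 were wide (14.3%), beside 8.14%. Among those with a single region the share was 14.5% (19 of 131), beside 6.46%. Matrix proteins had 12 of 45 (26.7%, 14.6 to 41.9), and matrix proteases and inhibitors 3 of 28 (10.7%). Col4a1, a chain of basement membrane collagen, had 11 and 5.55 kb among 7 regions and 1380 reads per kb, and Hspg2, the proteoglycan perlecan, had 4 regions of 4.95, 5.1, 8.7 and 6.1 kb, all wide, at 1120.1 reads per kb. Sparcl1, a secreted matrix protein, had 9.95 kb, and Fbn1, the microfibril protein fibrillin, 7.4 kb. Of the focal adhesion and integrin genes 9 of 44 had a wide region (20.5%, 9.80 to 35.3), and several of these proteins link integrins to actin. Actn1 had 7.6 kb, Zyx 7.25 kb, Pxn 6.95 kb, Tln1 6.8 kb and the kinase gene Ptk2 5.75 kb, and the last 2 stood at 1289 and 1482 reads per kb. Cadherins and their partners had 6 of 23 (26.1%, 10.2 to 48.4). Pkp2, a desmosome protein, had 10.4 kb and only 433 reads per kb, and the p120 catenin gene Ctnnd1 had 8.0 kb. The immunoglobulin and junction list had 12 of 43 (27.9%, 15.3 to 43.7). Guidance genes, which also steer vessels, had 8 of 38 (21.1%, 9.55 to 37.3), with Unc5b at 8.25 kb, Nrp2 at 7.8 kb and Sema5a at 6.6 kb.

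Signalling genes had 85 of 479 (17.7%, 14.4 to 21.5), beside 11.7% of all protein-coding genes. By region, 94 of 907 were wide (10.4%), beside 8.14%. With a single region the share was 19 of 270 (7.04%), beside 6.46% for all protein-coding genes. For each signalling list below, the exact interval holds the 11.7%. G protein-coupled receptors and cyclic nucleotide genes had 17 of 88 (19.3%), including S1pr1 and Aplnr above, S1pr2 at 7.4 kb and the thrombin receptor gene F2r at 7.7 kb. Gpr124, which acts in vessels of the brain, had 8.25 kb and, over all its regions, 2827 reads per kb. The phosphoinositide, AKT and protein kinase C list had 15 of 79 (19.0%), with Inpp5d, the phosphatase SHIP1, at 7.05 and 6.45 kb. Its 15 also counted Sh3tc1, Sh3rf1, Sh3bp5, Sh3bp4, Sh3tc2 and Sh3pxd2a, genes named for SH3 domains that entered by symbol pattern. In the Notch pathway 4 of 17 had a wide region (23.5%), Maml3, a coactivator, at 9.95 kb, Notch1, Psen2 and Heyl. In the Wnt pathway 5 of 24 did (20.8%), with Rspo3, a secreted amplifier, at 7.1 kb and the co-receptor gene Lrp6 at 5.1 kb. In the TGF-beta and BMP pathway 5 of 33 did (15.2%). They included the inhibitors Ski at 6.15 kb and Smad7 at 4.9 kb and the endothelial receptor gene Acvrl1 exactly at 4.5 kb. The list of receptor tyrosine kinases and ligands had 9 of 53 (17.0%). These 9 counted Egfl7, Igf2r, Grb10, Pdgfrl and Spred2, which are not receptor tyrosine kinases. The MAP kinase list had 7 of 52 (13.5%), among them the phosphatases Dusp4 at 5.4 kb and Dusp6 at 5.3 kb. Hippo and Hedgehog members included the kinase Lats2 at 8.75 kb and Sufu, a Hedgehog inhibitor, at 8.4 and 7.35 kb.

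Lists of other cell types and uses had 9 of 58 genes with a wide region (15.5%, 7.3 to 27.4), an interval that holds the 11.7% of all protein-coding genes. By region, 11 of 99 were wide (11.1%, 5.68 to 19.0), beside 8.14%. Among their genes with a single region, 7 of 39 had a wide one (17.9%), beside 6.46% of all protein-coding genes. That share was above the 14.5% of adhesion genes. Heart muscle genes had 3 of 12 (25.0%), the factors Tbx20, Hand1 and Gata6, and 2 of the 6 with a single region had a wide one. Smooth muscle and mesenchymal genes had 2 of 12 (16.7%), Cald1 and Tagln2. Neuronal genes had 1 of 9 (11.1%), Mapt, at 5.0 kb. Ribosomal protein genes had 2 of 14 (14.3%), Rpl7a and Rpl12, and both shared their region with other genes. Pluripotency genes had 1 of 11 (9.09%), Tbx3. Genes in no list had 352 of 3558 (9.89%), so most of the 532 protein-coding genes with a wide region stand outside the lists.

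**Figure D3:**
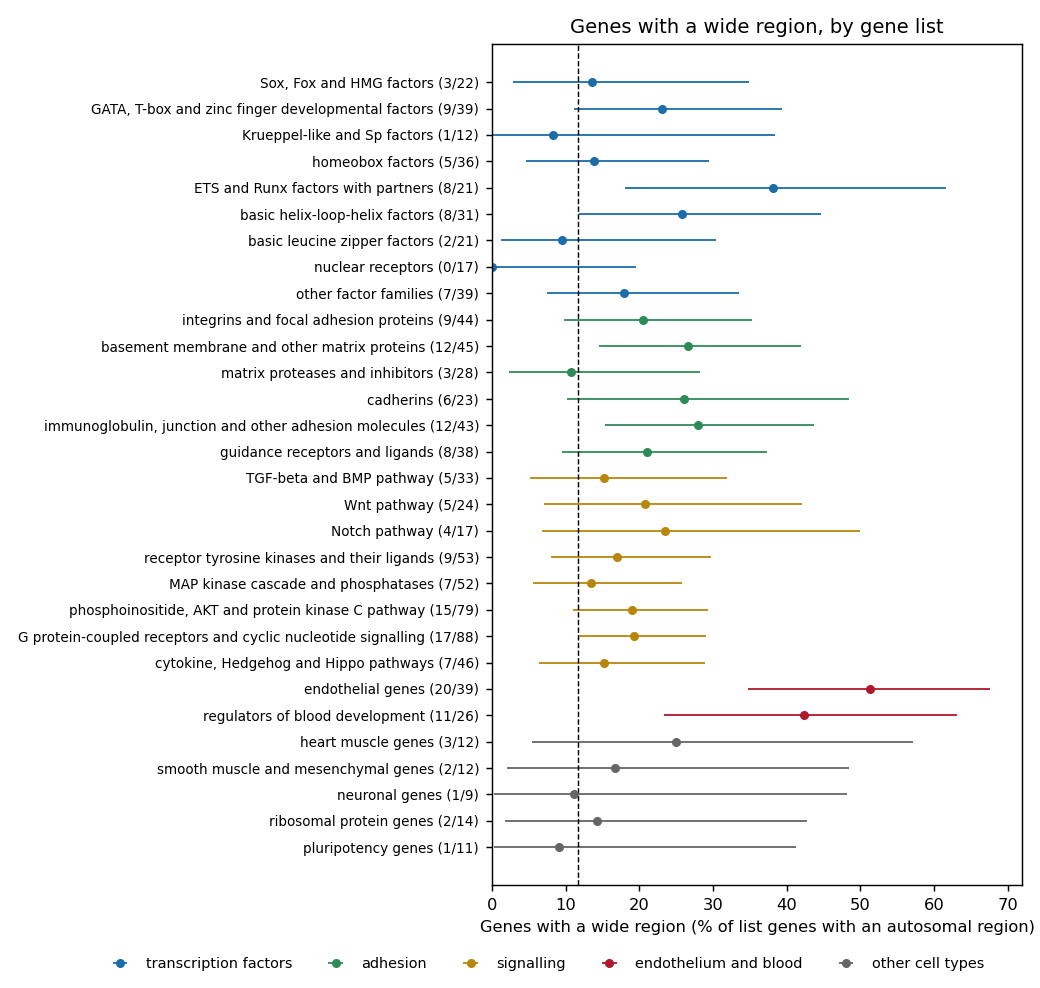
Percent of genes with an autosomal region that have a wide one, by gene list, with exact Clopper-Pearson intervals (counting error only), coloured by class; the dashed line is the 11.7% of all protein-coding genes. Endothelial genes (20/39), regulators of blood development (11/26) and ETS and Runx factors with partners (8/21, with Tead1 but no Runx gene among the 8) stand farthest to the right. Nuclear receptors stand at 0.

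At the level of genes, 641 of 5529 (11.6%) had a wide region. Of these, 588 had 1 and 53 had 2 or more. The share rose with the number of regions of a gene, from 6.84% of genes with 1 region to 14.4% with 2, 31.1% with 3, 40.3% with 4 and 50.3% with 5 or more. Some rise follows from counting alone, since each further region may be wide, and 7.98% of all autosomal regions were. Whether the rise exceeds that was not tested. The mean number of regions and the shares among genes with a single region are given above beside the main lists. The other regions of genes with several regions and a wide one had a median width of 2250 bp, beside 2100 bp in genes with several regions and no wide one. AC114005.5, a gene model with 59 regions on chromosome 8, had 6 wide ones. Bach2, a repressor of lymphocyte genes, had 5 of 9, of 9.35, 4.6, 5.85, 9.0 and 7.15 kb, and 953 reads per kb. Tspan14 had 3 of 3, of 11, 15.2 and 6.1 kb, with 907 reads per kb. Cald1, the actin-binding protein caldesmon, had 3 of 9, Ccnd3, a cyclin of G1 phase, 3 of 6 and Dapk1, a kinase of cell death, 3 of 6.

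Non-coding genes were present as well. Beside the 11.6% of all genes, 43 of 275 long intergenic RNA genes had a wide region (15.6%, 11.6 to 20.5), an interval that reaches down to that share. Of 303 processed transcripts 26 had one (8.58%), and of 143 pseudogenes 11 (7.69%). No protein-coding gene was assigned to 56 of the 614 wide regions and to 808 of the 7081 narrower ones. A wide region was assigned to 2 or more genes in 83 cases (13.5%, 10.9 to 16.5), beside 571 narrower ones (8.06%, 7.44 to 8.72), and the most genes at 1 wide region was 6.

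Read density was set against width in genes with a single region, whose reads per kb belong to that region. The 272 genes with a single wide region had a median of 723 reads per kb (quartiles 600.0 and 963), and the 3706 with a single narrower region 677 (509 and 941). The difference of the medians was 46.0 reads per kb (interval of the wide median carried over, 21.8 to 95.4), a ratio of 1.07. It was 74.7 where only regions assigned to 1 gene were kept. The interval reflects the spread between genes, some of which share a region, and not replicate error. By width class, the medians did not step up at 4500 bp. Narrower classes of 2500 to 3000, 3000 to 3500 and 3500 to 4500 bp had 705, 727 and 711 reads per kb. Wide classes of 4500 to 5500 and 5500 to 7000 bp had 723 and 687. The class of 7 kb or more had 799, and the classes under 2500 bp had 639 to 679. The ranges overlapped nearly throughout, from 294.7 to 7221 in the wide and from 45.3 to 8869 in the narrower set. The sets parted at the low end. Under 400 reads per kb stood 1 of the 272 genes (0.368%) and 455 of the 3706 (12.3%, 11.2 to 13.4). Over 1500 reads per kb stood 12 (4.41%) and 191 (5.15%), so the high end was alike in share. The Spearman correlation of width and reads per kb was 0.110 over 3978 genes, which share libraries and, in part, regions.

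**Figure D4:**
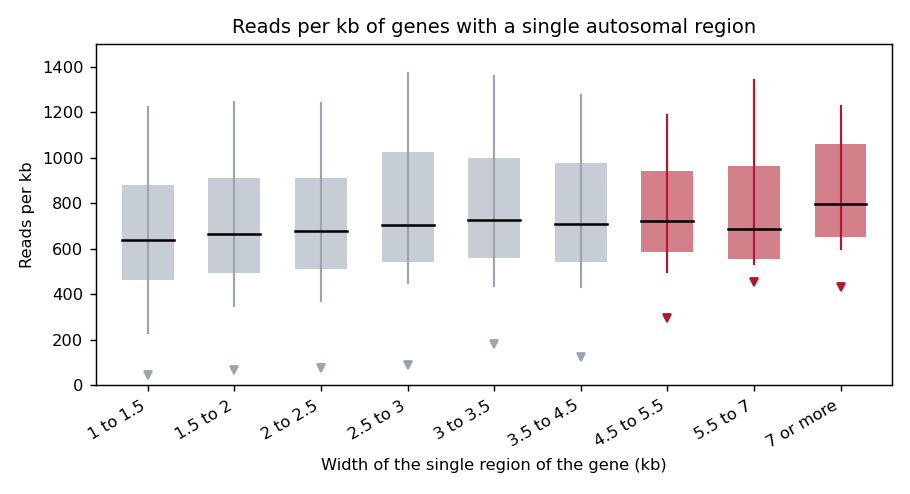
Reads per kb of genes with a single autosomal region, in 9 classes of region width (kb); the black line is the median, the box spans the quartiles, the thin line runs from the 10th to the 90th percentile and the triangle is the lowest gene, with wide classes in red. The medians lie between 639 and 799, the highest of them in the class of 7 kb or more, and the 10th percentile lies at 230 in the narrowest class and 599 in the widest. The median is 711 in the last narrower class and 723 in the first wide one.

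Counts of their own could be given to 235 of the 614 wide regions (38.3%) and to 3469 narrower ones (49.0%), and reads of the others cannot be split between the regions of a gene. The wide median was 741 reads per kb and 4277 reads, and the narrower median 673 reads per kb and 1428 reads. Within the same gene, where both kinds had counts of their own, the wide region was the denser in 14 of 26 genes and the sparser in 12. The median difference, wide minus narrower, was 42.7 reads per kb (quartiles -374 and 424). In F11r the wide region held 1827 reads per kb and the narrower one 574, and in Msh5, a DNA mismatch repair family gene, they held 1804 and 611. In Egfl7 the wide region held 821 reads per kb and the narrower one 2058, and in Gata3, with 2 narrower ones pooled, they held 644 and 1111. S1pr1 showed 568 and 690. The differences thus ran both ways.

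The 10 densest wide regions that were the only region of a gene were between 4.7 and 9.7 kb wide. At the top was the 4.8 kb region chr1:24618263-24623063 of Gm10222 and Gm10925, with 34666 reads and 7221 reads per kb (7145 to 7297). RefSeq lists both as pseudogenes and gives Gm10925 the synonym mt-Atp6, the name of a gene of mitochondrial DNA. The next, 2900052L18Rik, a long intergenic RNA gene, had 7.3 kb and 2036. Znrf1, a ubiquitin ligase, had 7.35 kb and 1876, Gm13621 4.7 kb and 1869.6, and 2010002N04Rik 4.85 kb and 1774. F11r, the junctional adhesion molecule A, shared 6.4 kb with Gm17520 at 1827. The widest of them, 9.7 kb, was shared by Gm17270, Gm4221 and the zinc finger gene Zfp608 at 1599. Apoe, the lipid carrier, had 6.25 kb at chr7:20279431-20285681 and 1597. Cyr61, a matrix protein that binds integrins, shared 5.75 kb with Gm17501 at 1573, and the small nucleolar RNA gene SNORA31 had 6.8 kb and 1514. The sparsest was the 4.75 kb region of Ppfibp1 and 1700034J05Rik, with 294.7 reads per kb (279 to 311). Zeb1, a repressor that acts in the change from epithelium to mesenchyme, had 5.3 kb and 413.5. The next were 9030425E11Rik with Gm16096 at 427, Pkp2 at 433 and Cd200r3 at 434.

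Wide regions occurred on all 19 autosomes. The share of a chromosome's regions that were wide was highest on chromosomes 18 (27 of 252, 10.7%, 7.18 to 15.2) and 17 (30 of 280, 10.7%), and lowest on chromosomes 11 (33 of 580, 5.69%, 3.95 to 7.90) and 7 (26 of 483, 5.38%, 3.55 to 7.79). Chromosome 2, with Egfl7, Plcg1, Notch1, Aplnr and Mir130a, held the most by number, 55 of 675 (8.15%). The intervals of 17 of the 19 chromosomes held the autosomal share, and those of 11 and 7 lay below it. The median reads per kb of single wide regions was above that of narrower ones on 14 of the 19 autosomes.

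**Figure D5:**
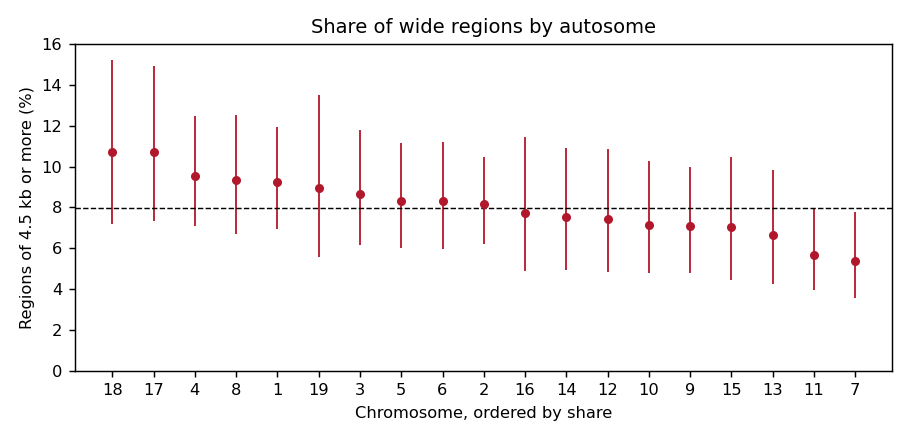
Percent of the regions of each autosome that are 4.5 kb or wider, in order of the share, with exact Clopper-Pearson intervals (counting error only) and a dashed line at 7.98%. Chromosomes 18 and 17 stand at 10.7%, and the upper ends for 11 and 7 lie at 7.90% and 7.79%.

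Wide regions lay closer to other regions than narrower ones did. The gap to the nearest other region had a median of 13.5 kb (quartiles 5.05 and 41.1) for wide and 26.75 kb (7.65 and 84.05) for narrower regions. A neighbour within 10 kb was present for 270 wide regions (44.0%, 40.0 to 48.0) and for 2078 narrower ones (29.3%, 28.3 to 30.4). Within 1 kb the shares were 1.30% and 1.07%. There were 29 pairs of neighbouring wide regions under 10 kb apart, and the closest regions of any kind in the table were 300 bp apart.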

How the data were processed

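Per the file headers, the single table deposited by the authors gives a read count per gene, a whole number that covers all of the gene's regions. A second deposited column is a signal, reads per kb, per the file headers. Dividing the count by the added lengths of those regions gave the same value within 0.006 for all 5867 genes, with no scaling to library size. The submitters' processing notes name mm9 as the build. The sources used here do not give the aligner, the region caller, how the lines were compared, how genes were assigned or the depth of the 12 libraries. A caller that joined signal over longer gaps would make regions wider and change the members.

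Regions were split at semicolons, and distinct positions were counted once. Widths are end minus start, on a 50 bp grid. A region has its own count where a gene has no other region, or where the counts of the gene's other regions could be subtracted. Protein-coding genes were counted by symbol. The 31 lists match symbols by pattern, and some members, such as Igf2r among receptor tyrosine kinases, share only the name. Others, such as the Sh3 genes of the phosphoinositide list and Tead1 among ETS and Runx factors, do not belong to the family named. A few list results are not reported here. The members and lists were chosen with earlier results of these data known. Genes were named by a rule that takes the 10 widest regions, the 10 densest and 5 sparsest that are the only region of a gene, genes with the most wide regions, up to 5 genes with the widest region of each list, and the members at the threshold. List genes beyond these, and those without a wide region, were named after their values were seen. Shares have exact Clopper-Pearson and counts exact Poisson intervals at 95%, and the intervals of medians come from binomial order statistics. Intervals of shares and counts cover counting error only, and those of medians reflect the spread between genes or regions. The assignment of counts was tested on simulated data. The edgeR test planned between the lines needs counts per library and was not made. Python 3.11.15, pandas 2.3.3, NumPy 2.4.6, SciPy 1.17.1 and matplotlib 3.10.9 were used.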

Additional observations from a re-analysis of the deposited data

How the results depend on the processing

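Of 42 values under other settings, 6 moved beyond the interval or limit set for them, and none changed direction. The number of wide regions was 614 and fell to 236 at 6000 bp, beside 839 at 4000 bp, 427 at 5000 bp and 646 with neighbours under 1000 bp apart merged. As ratios to the share of all protein-coding genes, transcription factors went from 1.54 to 2.11 at 6000 bp, adhesion genes from 1.93 to 2.75, endothelial genes from 4.37 to 7.53 and regulators of blood development from 3.60 to 5.65, the last with 2.21 among genes with a single region. Signalling genes went from 1.51 to 1.09 among genes with a single region. The cause was not tested. The difference of median reads per kb, 46.0, ranged from 34.05 to 74.7 over 10 alternatives. The difference of median gaps was -13.2 kb, and -12.95 and -13.6 kb at 4000 and 6000 bp, settings chosen after seeing the data. No paired analysis was possible because the table has 1 value per gene and none per library, so leaving out replicates was not run either. Depth per library is unknown, and no interval covers replicate error.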
